A study of Mus musculus with 21 samples.

Results

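The genes described are 9 listed voltage-gated potassium channel genes (Kcna1, Kcna2, Kcna4, Kcna6, Kcnc4, Kcnd3, Kcnq3, Kcnq5 and Kcns1), of 24381 genes present in both deposited count tables. They were measured by bulk RNA sequencing in mouse dorsal root ganglia, which hold the cell bodies of sensory neurons. All 9 passed the filter on low counts and were tested among 16928 genes. The 21 libraries fell into 6 groups by genotype and by the set that the library names give: 4 labelled cKO and 4 labelled flox from a CFA model, 4 cKO and 3 flox named con or ko (the con/ko set), and 3 cKO and 3 flox named LDRG. The con/ko names also carry the letters F or M and C or L, which the labels leave unexplained. C is commoner in cKO and L in flox con/ko names, and the con/ko groups mix these letters. The cKO mice carried a floxed Tmem45b gene together with Mrgprd-driven Cre (Mrgprd encodes a receptor of nonpeptidergic nociceptors), and the flox mice carried the floxed gene alone, so the floxed allele was common to every group. The labels leave CFA unexplained; the letters usually stand for complete Freund's adjuvant, an agent that induces inflammation. No treatment is given for the con/ko and LDRG sets, called untreated here, and the sources used here give neither age nor strain. Because the deletion is limited to cells with Cre, a ganglion of a cKO mouse still holds other cells with an intact gene.

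Voltage-gated potassium channels are built from 4 alpha subunits and open on depolarization, which returns the membrane toward rest and limits repetitive firing. Kv1 subunits, encoded by Kcna genes, pass a fast-activating current that holds back firing and sit along the axon beside the nodes of Ranvier in myelinated fibres. Kv7 subunits, encoded by Kcnq genes, form the M-current, a slow non-inactivating current that muscarinic receptors shut off. Kcnd3 encodes a Kv4 subunit of the rapidly inactivating A-type current, Kcnc4 a Kv3 subunit, and Kcns1 a Kv9 subunit that forms no channel by itself and modifies Kv2 channels.

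The libraries held 53.4 M to 72.5 M counts each. Levels are in CPM, a gene's counts per 1000000 counts of its library after TMM scaling. Tmem45b averaged 66.6 ± 6.19 CPM in cKO LDRG libraries and 134 ± 10.7 CPM in flox LDRG libraries (SD, n = 3 each), and 79.6 ± 9.33 CPM in cKO con/ko libraries (n = 4), against 161 ± 16.2 CPM in flox con/ko libraries (n = 3). In the CFA set it averaged 85.8 ± 24.5 CPM in libraries labelled cKO and 99.4 ± 32.0 CPM in libraries labelled flox (n = 4 each), and the ranges overlapped, so Tmem45b does not separate the genotype labels there. A pair of CFA libraries stood apart from the rest of their groups in Kcnb2, a Kv2 subunit that is no member and was chosen after its values were seen. Library 4 labelled cKO and library 1 labelled flox had 296 and 247 CPM, against 9.31 to 10.9 CPM in the other 6 CFA libraries, and also had the lowest Tmem45b of their groups (61.8 and 65.9 CPM). The 4 cKO con/ko libraries had 151 to 178 CPM of Kcnb2, and all other untreated libraries 7.14 to 10.9 CPM. Markers of the labelled tissue were abundant: the 12 pan-neuronal markers were all detected and summed to 7307 CPM in the lowest library. Set and sex go together in part: Xist passed the test as higher in CFA than in LDRG libraries in both genotypes, and 3 of the 5 sex-linked genes, all Y-linked, were at 0 in every CFA library. Differences between CFA and LDRG libraries therefore cannot be told apart from sex, and no difference between sets can be told apart from the handling of a set; the con/ko set is also a table of its own. The labels do not tie libraries to separate animals, so the p-values rest on library-to-library spread, which may be technical. In whole ganglia, fewer cells of a type and less RNA per cell cannot be told apart.

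**Figure D1:**
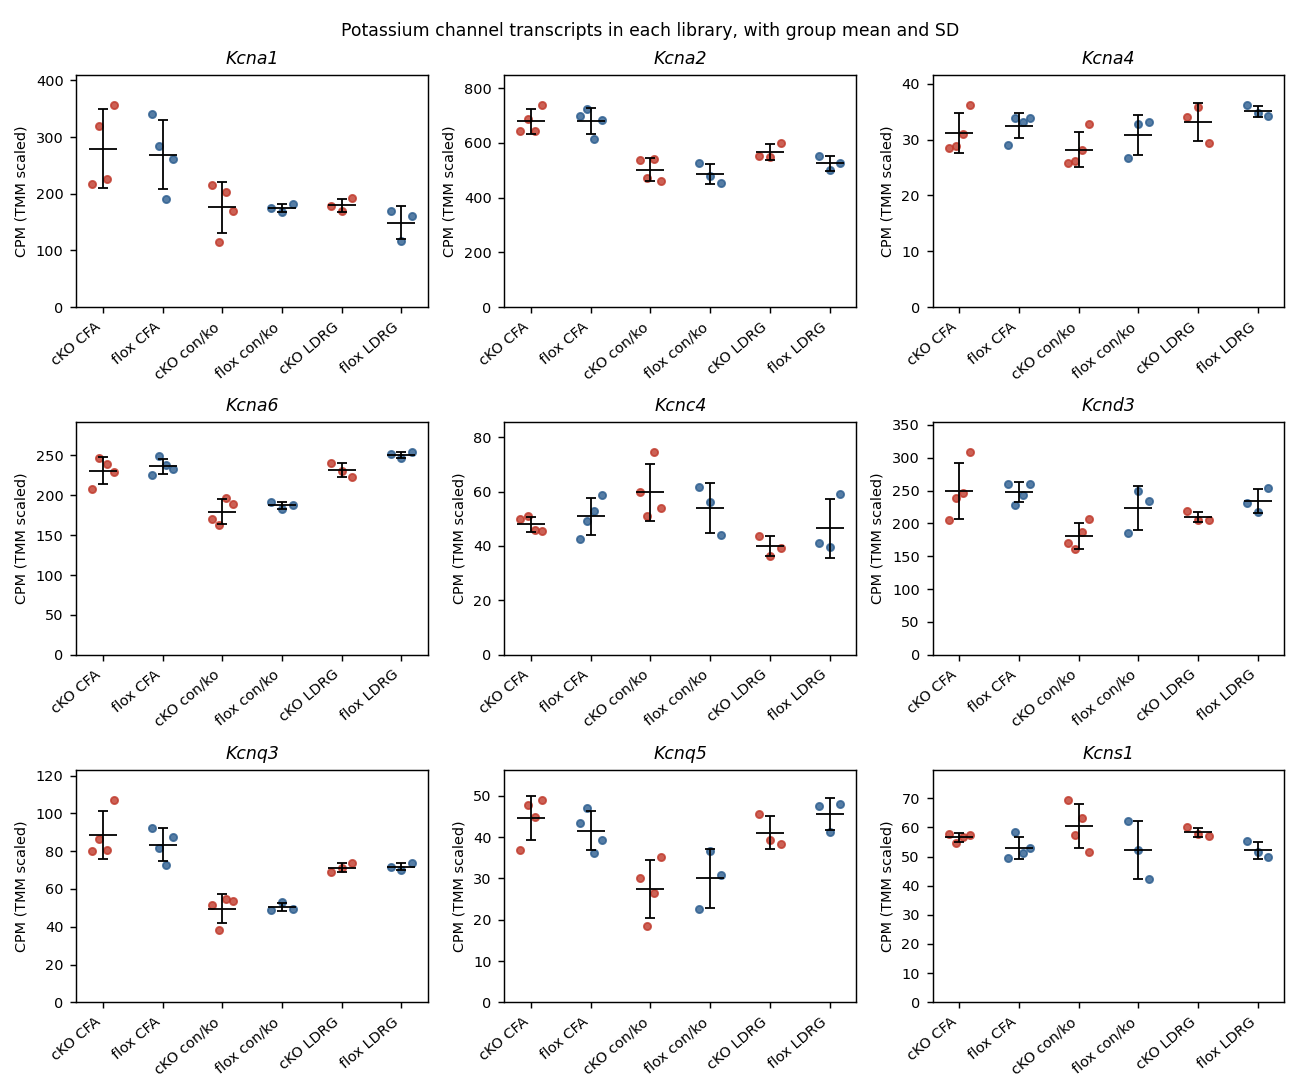
CPM (vertical axis, linear from 0) of the 9 channel genes in each of the 21 libraries, grouped by genotype and set; points are libraries, the dash and bar are the group mean and SD, cKO is red and flox is blue. Kcna2 in the 8 CFA libraries starts at 614 CPM, above the highest of the 13 untreated libraries at 599 CPM.

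Per kilobase of exon, the Kv1 genes Kcna2, Kcna1 and Kcna6 were the most abundant members, with means over the 21 libraries of 48.7 ± 7.6, 43.9 ± 14 and 36.8 ± 4.85 CPM per kilobase (SD). Kcnd3 followed at 23.4 ± 3.57 and Kcns1 at 20.5 ± 2.12 CPM per kilobase, then Kcnc4 at 13.7 ± 2.52. Kcna4, Kcnq5 and Kcnq3 were lowest, with means of 6.54, 4.98 and 4.75 and ranges of 5.34 to 7.5, 2.39 to 6.37 and 2.59 to 7.28 CPM per kilobase. Neighbours in this order overlapped within their SD for Kcna2 and Kcna1, Kcna1 and Kcna6, and Kcnd3 and Kcns1. The same held for Kcna4 and Kcnq5, and for Kcnq5 and Kcnq3. This SD also holds the differences between sets. Ranked within each library, Kcna2, Kcnd3 and Kcns1 were each at their usual rank in 17 of 21. Kcna2 ranked no lower than 2 in any library and Kcnc4 was at its usual rank in 20 of 21. These levels depend on exon lengths from GENCODE vM21, and the annotation behind the deposited counts is unknown here.

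On mm10, Kcna1 (chr6:126640397-126646384, minus strand) and Kcna6 (chr6:126708329-126740674, minus strand) are close neighbours, and Kcna2 (chr3:107101146-107115005, plus strand), Kcnc4 (chr3:107438303-107459552, minus strand) and Kcnd3 (chr3:105452330-105674002, plus strand) lie on one chromosome. Kcna4 is at chr2:107290639-107298502 on the plus strand and Kcns1 at chr2:164163619-164171113 on the minus strand. Kcnq3 spans chr15:65986387-66286642 and Kcnq5 chr1:21398403-21961942, both on the minus strand. An antisense gene, Gm26673, covers 39.6% of the exon bases of Kcna6, Gm26580 covers 3.08% of those of Kcnq5 and Kcnd3os covers 1.72% of those of Kcnd3. Whether counting used strand is not given, so reads of these pairs may not be separated.

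Kcna2 and Kcna6 encode subunits of one family whose levels parted between sets, and their promoter windows are shown for that reason. RefSeq (GRCm38.p6) gave a window of 250 bases before to 50 bases after the transcript start for 7 of the 9 genes. The Kcna2 window is chr3:107101317-107101616 on the plus strand and the Kcna6 window is chr6:126740625-126740924 on the minus strand, each printed 5′ to 3′ along its gene, with capitals on matches, on either strand, to the GC box GGGCGG or the cyclic AMP response half-site TGACG.
Kcna2: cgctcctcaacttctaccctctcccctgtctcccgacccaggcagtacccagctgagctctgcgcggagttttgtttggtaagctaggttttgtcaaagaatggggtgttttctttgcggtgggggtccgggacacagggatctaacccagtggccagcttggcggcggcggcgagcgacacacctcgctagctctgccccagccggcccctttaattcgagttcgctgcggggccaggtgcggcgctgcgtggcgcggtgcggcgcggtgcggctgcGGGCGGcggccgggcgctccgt
Kcna6: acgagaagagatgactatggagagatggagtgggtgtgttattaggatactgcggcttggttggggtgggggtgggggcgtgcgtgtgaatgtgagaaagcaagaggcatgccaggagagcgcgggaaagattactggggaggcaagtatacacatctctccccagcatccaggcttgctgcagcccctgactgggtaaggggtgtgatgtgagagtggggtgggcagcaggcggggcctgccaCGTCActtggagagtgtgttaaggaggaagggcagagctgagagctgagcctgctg
The Kcna2 window held 1 GC box and no TGACG, and the Kcna6 window held 1 TGACG and no GC box; neither held a TATA box (TATAAA). Of 32851 promoter windows of this length, 35.7% held a GC box, 20.8% TGACG and 13.6% TATAAA, so each match is a common one. GC content was 66.7% in the Kcna2 window and 58.3% in the Kcna6 window, against a median of 52.7% over all windows.

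The first comparison set the CFA libraries against the untreated ones. Kcna2 was the member that separated them in every library, and Kcna1 was higher on average with a wide spread. In flox libraries, CFA against LDRG, 2 of 9 members were called higher (Kcna1 and Kcna2) and none lower, where 3.74% of all genes tested were called in either direction and 1.94% higher. In cKO libraries the same comparison called 0 of 9, where 1.25% of all genes were called (edgeR's quasi-likelihood test with Benjamini-Hochberg adjustment over all genes, called at adjusted p under 0.05). There, 4 of 9 members had an unadjusted p under 0.05, as did 2791 of the 16928 genes tested, and DESeq2 called Kcna1 and Kcna2 among 834 genes.

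Kcna2, the Kv1 gene with the highest mean level per kilobase, had 644, 688, 643 and 738.5 CPM in the CFA libraries labelled cKO, against 553, 549 and 599 CPM in cKO LDRG libraries. In the CFA libraries labelled flox it had 699.6, 725, 614 and 685 CPM, against 553, 499 and 525 CPM in flox LDRG libraries. Each CFA library lay above each LDRG library, as for 3.53% of the genes tested. The log2 difference, CFA minus LDRG, was 0.26 (SE 0.08, adjusted p = 0.0943) in cKO and 0.37 (SE 0.08, adjusted p = 0.0101) in flox libraries in edgeR. In the con/ko set Kcna2 had 536, 472, 539.8 and 460.2 CPM in cKO and 525, 477 and 454 CPM in flox libraries, overlapping the LDRG set in flox. All 8 CFA libraries therefore exceeded all 13 untreated libraries, a pattern that 0.821% of the genes tested showed in that direction.

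Kcna1, in which mutations cause episodic ataxia in people, had 217, 319, 226 and 357 CPM in the CFA libraries labelled cKO, against 178, 169 and 192 CPM in cKO LDRG libraries. It had 339.7, 285, 191 and 261 CPM in the CFA libraries labelled flox, against 170.0, 116 and 160.4 CPM in flox LDRG libraries. The sets overlapped slightly, since the lowest CFA library (191 CPM) stood just under the highest LDRG library (192 CPM). The log2 difference was 0.64 (SE 0.22, adjusted p = 0.144) in cKO and 0.86 (SE 0.22, adjusted p = 0.0353) in flox libraries in edgeR. The flox call was lost without any one of 6 of the 7 flox libraries compared, with adjusted p up to 0.203 without LDRG library 2, and the log2 difference stayed between 0.70 and 0.99 whichever of the 7 was left out. The CFA libraries with high Kcnb2 had the highest Kcna1 of their groups. Without that pair, Kcna1 differed by 0.50 in cKO (adjusted p = 0.302) and by 0.72 in flox libraries (adjusted p = 0.0995), and Kcna2 by 0.22 (adjusted p = 0.223) and 0.36 (adjusted p = 0.0292). Their part in the Kcna1 difference was not tested further.

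Kcna6, the gene next to Kcna1, did not follow it in CFA against LDRG libraries. It had 208, 247, 239 and 229 CPM in the CFA libraries labelled cKO, against 241, 230.1 and 224 CPM in cKO LDRG libraries, and 226, 249, 238 and 233 CPM in the CFA libraries labelled flox, against 252, 246 and 254 CPM in flox LDRG libraries. The ranges overlapped, with log2 differences of -0.01 (95% interval -0.14 to 0.13) in cKO and -0.08 (-0.22 to 0.05) in flox. Kcna4, which encodes an inactivating Kv1 subunit, averaged 31.1 ± 3.58 CPM in the CFA libraries labelled cKO, against 33.1 ± 3.42 CPM in cKO LDRG libraries, and 32.5 ± 2.29 CPM in the CFA libraries labelled flox, against 35 ± 1.06 CPM in flox LDRG libraries. Its log2 differences were -0.09 (-0.31 to 0.13) and -0.11 (-0.33 to 0.11).

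The ratio of 2 genes' counts in one library does not depend on its depth or scaling. Kcna2 to Kcna6 averaged 2.92 in CFA libraries (2.58 to 3.23, n = 8), against 2.72 in con/ko (2.42 to 3.16, n = 7) and 2.28 in LDRG libraries (2.03 to 2.68, n = 6). Kcna1 to Kcna6 averaged 1.18 in CFA libraries (0.804 to 1.56), against 0.959 in con/ko (0.712 to 1.27) and 0.685 in LDRG libraries (0.47 to 0.857). Both ratios were highest on average in the CFA set and lowest in the LDRG set, with overlapping ranges. Kcna1 to Kcna2 averaged 0.401 in CFA, 0.354 in con/ko and 0.299 in LDRG libraries.

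**Figure D2:**
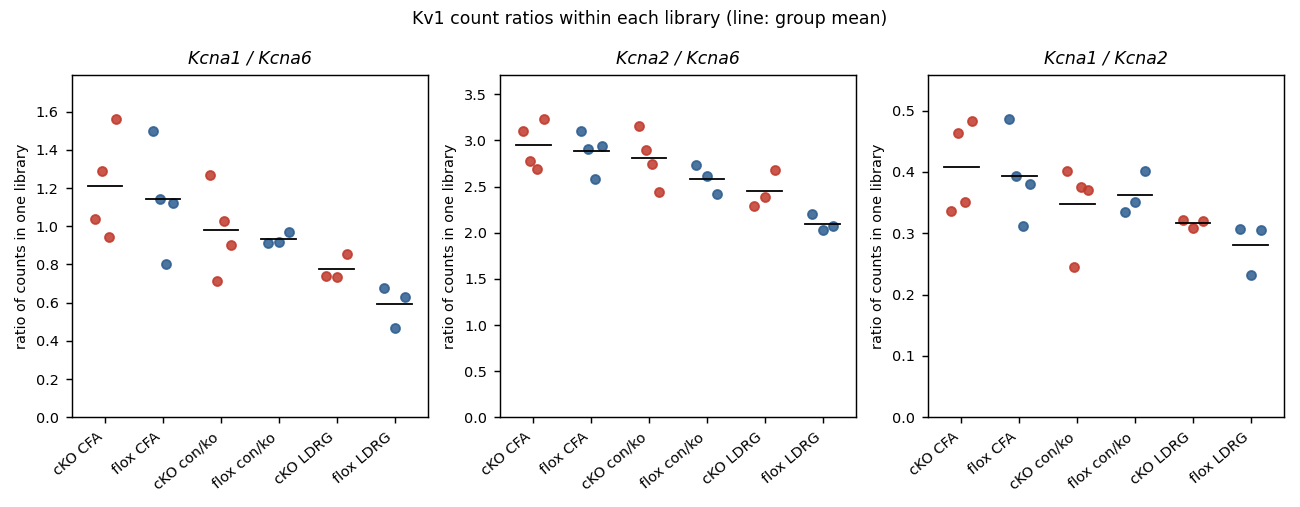
Ratios of raw counts between Kv1 genes within each library (vertical axes from 0), by group; points are libraries and lines group means. Kcna2 to Kcna6 is 2.58 to 3.23 in CFA libraries and 2.03 to 2.68 in LDRG libraries.

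Against the con/ko set, more members were higher in CFA libraries, in a comparison where a large share of all genes moved. In cKO libraries 6 of 9 members were called, all higher (Kcna1, Kcna2, Kcna6, Kcnd3, Kcnq3 and Kcnq5), where 39.3% of all genes were called in either direction and 18.4% higher. In flox libraries 4 of 9 were called, all higher (Kcna1, Kcna2, Kcna6 and Kcnq3), where 34.4% were called and 16.7% higher. The comparisons with LDRG and with con/ko libraries share the CFA libraries, so their values are given side by side and not counted as repeats of each other. Kcna2 differed from con/ko by 0.43 (SE 0.07) in cKO and 0.49 (SE 0.08) in flox libraries, and Kcna6 by 0.36 and 0.34 (SE 0.06 each). Kcna1 differed by 0.67 (SE 0.20, adjusted p = 0.0126) in cKO and 0.62 (SE 0.22, adjusted p = 0.0336) in flox libraries in edgeR, on con/ko values of 215.5, 116, 203 and 170.1 CPM in cKO and 175, 168 and 182 CPM in flox. The Kcna1 call was lost without CFA library 4 labelled cKO (0.53, adjusted p = 0.0566), and in flox without any one of 6 of 7 libraries. The labels leave the letter F or M in con/ko names unexplained. Sex-linked genes summed to 283.9 and 299.6 CPM in cKO and 320.2 and 316.0 CPM in flox libraries with F. With M they summed to 153.5 and 172.4 CPM in cKO and 177.6 CPM in flox. The sums were 283.2 to 459.5 CPM in CFA and 167.3 to 194.7 CPM in LDRG libraries. Against con/ko libraries with F alone, Kcna2 differed by 0.43 in cKO and 0.44 in flox libraries and Kcnq3 by 0.99 and 0.71. In that fit 6 members in cKO and 3 in flox were called, where 6252 and 4908 of 17035 genes were called. The cKO libraries with F all carry C. Without the CFA libraries with high Kcnb2 the counts were again 6 and 3, where 5560 and 5442 of 16889 genes were called.

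Of the members, Kcnq3 showed the largest difference against the con/ko set in both genotypes. Kcnq3, which encodes a subunit of M-channels, had 80.0, 86.2, 80.4 and 107 CPM in the CFA libraries labelled cKO, against 51.3, 38.1, 54.7 and 53.6 CPM in cKO con/ko libraries. It had 92.4, 81.5, 72.5 and 87.6 CPM in the CFA libraries labelled flox, against 49.1, 53.1 and 49.6 CPM in flox con/ko libraries. No CFA library overlapped a con/ko library. The same held for Kcna2 and Kcna6, and for 10.1% of the genes tested in that direction. The log2 differences were 0.84 (SE 0.11, adjusted p = 1.49e-05) in cKO and 0.72 (SE 0.12, adjusted p = 0.000204) in flox libraries in edgeR. In LDRG libraries Kcnq3 was nearly constant, at 69.0, 70.9 and 73.6 CPM in cKO and 71.8, 69.8 and 73.6 CPM in flox. CFA minus LDRG gave 0.31 (SE 0.11, adjusted p = 0.173) in cKO and 0.22 (SE 0.11, adjusted p = 0.32) in flox, neither of which passed.

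Kcnq5, the M-current subunit with wide expression in neurons, had 37.0, 47.8, 44.8 and 49.0 CPM in the CFA libraries labelled cKO, against 30.0, 18.4, 26.5 and 35.1 CPM in cKO con/ko libraries. It had 43.3, 47.1, 36.2 and 39.4 CPM in the CFA libraries labelled flox, against 22.6, 36.7 and 30.8 CPM in flox con/ko libraries. The cKO groups did not overlap, and 1 flox con/ko library lay inside the flox CFA range. The log2 difference was 0.70 (SE 0.17, adjusted p = 0.00275) in cKO; in flox it was 0.47 (SE 0.18, adjusted p = 0.0521), which missed the threshold in edgeR. Against LDRG libraries Kcnq5 differed by 0.12 (95% interval -0.25 to 0.50) in cKO and -0.14 (-0.51 to 0.24) in flox. The count ratio of Kcnq3 to Kcnq5 averaged 2.0 in CFA, 1.8 in con/ko and 1.66 in LDRG libraries, with overlapping ranges.

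Of the other alpha subunits, Kcnd3 was called in cKO libraries against con/ko. It had 205, 238, 246.5 and 308 CPM in the CFA libraries labelled cKO, against 171, 162, 187 and 207 CPM in cKO con/ko libraries, a log2 difference of 0.46 (SE 0.11, adjusted p = 0.00295 in edgeR); 1 con/ko library overlapped the CFA range. In flox it averaged 248 ± 15.3 CPM (n = 4) in CFA and 223 ± 33.3 CPM (n = 3) in con/ko libraries, a difference of 0.15 (95% interval -0.10 to 0.40). Kcnc4 averaged 48.0 ± 2.76 CPM in the CFA libraries labelled cKO, against 59.7 ± 10.5 CPM in cKO con/ko libraries, and did not pass (-0.31, adjusted p = 0.0873 in edgeR). Kcns1, the silent Kv9 subunit, had log2 differences between sets of -0.09 to 0.05 over the 6 comparisons under TMM scaling, and none passed. Scaled to pan-neuronal genes, Kcns1 passed as higher in con/ko than in LDRG libraries. The difference was 0.30 (adjusted p = 0.0178 in edgeR) in cKO and 0.41 (adjusted p = 0.0025) in flox. Under that scaling 7129 of the 16928 genes tested were called in cKO and 9667 in flox.

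**Figure D3:**
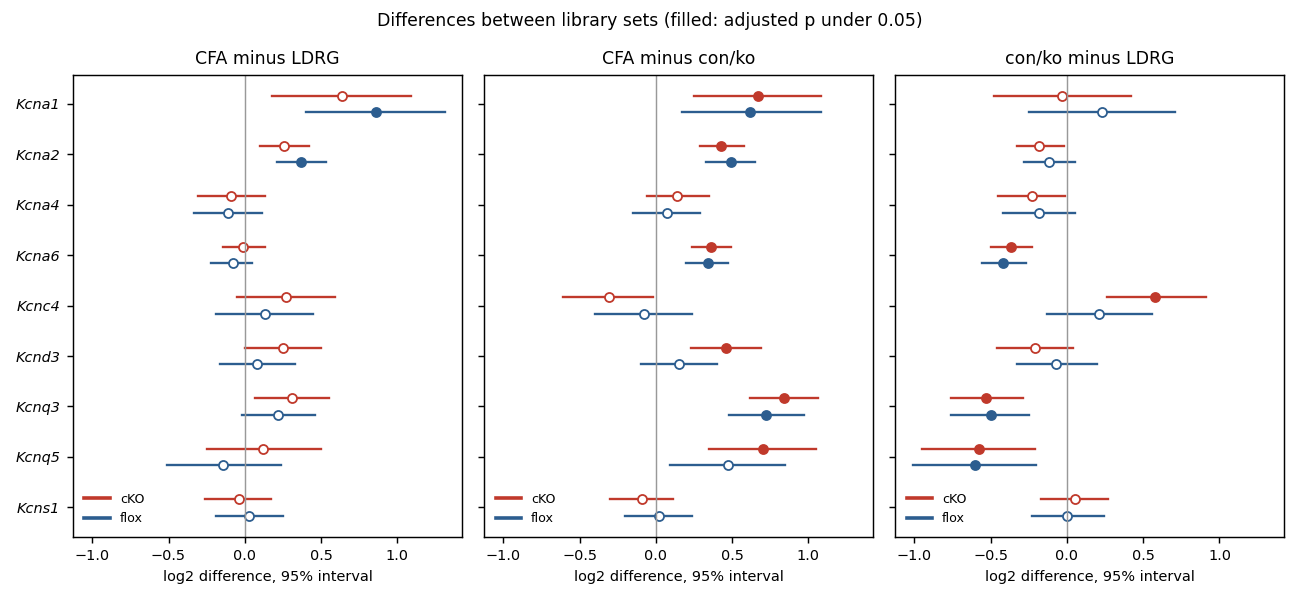
Log2 differences between library sets with 95% intervals (horizontal axis) for the 9 genes, cKO red and above, flox blue and below; filled points passed adjusted p under 0.05 in edgeR. The points of Kcna1, Kcna2, Kcnd3 and Kcnq3 lie right of 0 in both CFA comparisons. Those of Kcna6 and Kcnq5 do so against con/ko libraries, while against LDRG libraries their intervals span 0.

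The untreated sets also differed from each other. In cKO libraries, con/ko against LDRG, 4 of 9 members were called: Kcna6, Kcnq3 and Kcnq5 lower and Kcnc4 higher, where 33.7% of all genes were called, 15.9% lower and 17.8% higher. In flox libraries 3 of 9 were called (Kcna6, Kcnq3 and Kcnq5, all lower), where 33.5% were called and 16.1% lower. Kcna6 had 169.7, 163, 197 and 189 CPM in cKO con/ko and 192, 182.5 and 187 CPM in flox con/ko libraries, all under the 224 CPM of the lowest LDRG library. Its log2 differences were -0.37 in cKO and -0.42 in flox (SE 0.06 and 0.07). Kcnq3 differed by -0.53 and -0.50, and Kcnq5 by -0.58 and -0.60. For Kcna6, Kcnq3 and Kcnq5 all 7 con/ko libraries lay below all 6 LDRG libraries, as did 12.3% of the genes tested. Kcnc4 was higher in cKO con/ko libraries by 0.58 (SE 0.15, adjusted p = 0.00767 in edgeR), at 59.8, 50.9, 74.4 and 53.8 CPM, against 43.8, 36.5 and 39.2 CPM in cKO LDRG libraries, and by 0.21 (adjusted p = 0.339) in flox.

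Markers of cell types moved with the same sets. The 7 myelinating Schwann cell markers summed to 3867 to 5897 CPM in CFA, 5603 to 12984 CPM in con/ko and 4339 to 6063 CPM in LDRG libraries. Between con/ko and LDRG libraries 6 of 7 were called higher in flox and 3 of 7 in cKO, where 33.5% and 33.7% of all genes were called. The 12 pan-neuronal markers summed to 8408 to 9621 CPM in CFA, 7307 to 8975 CPM in con/ko and 9944 to 10414 CPM in LDRG libraries. The 12 markers of large A-fibre neurons summed to 8129 to 10255 CPM in CFA, 6444 to 8608 CPM in con/ko and 10646 to 11773 CPM in LDRG libraries. The 6 peptidergic neuron markers summed to 1701 to 2216 CPM in CFA, 1547 to 2109.9 CPM in con/ko and 2372 to 2827 CPM in LDRG libraries. In CFA against LDRG libraries 3 of 6 were called lower in flox and 0 of 6 in cKO. The 5 macrophage markers summed to 35.4 to 51.6 CPM in CFA, 48.1 to 114.5 CPM in con/ko and 25.5 to 30.9 CPM in LDRG libraries. The pan-neuronal, large A-fibre, peptidergic and macrophage sums each separated CFA from LDRG libraries without overlap. The macrophage sum was higher in CFA libraries and the other sums named were lower. Gene by gene, few of these markers were called in CFA against LDRG libraries. Called lower were 2 of 12 pan-neuronal and 1 of 12 large A-fibre markers in flox, and 1 and 0 of 12 in cKO. Of the 5 macrophage markers 2 were called higher in flox and 0 in cKO. Of all genes, 3.74% were called in flox and 1.25% in cKO. Red blood cell markers, 5 of 5 called in each comparison of sets, summed to 207 to 620 CPM in CFA, 1588 to 4317 CPM in con/ko and 33.7 to 53.8 CPM in LDRG libraries. The 12 skeletal muscle markers ranged from 3.2 to 116 CPM in CFA, 6.26 to 977 CPM in con/ko and 6.06 to 702.5 CPM in LDRG libraries. Of 6 nerve injury markers, 5 were called lower in flox CFA than in flox LDRG libraries, among them Atf3 by 2.10 on the log2 scale, and 0 in cKO, where 5 of 6 had an unadjusted p under 0.05. Their part in the channel differences was not tested.

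With libraries scaled to the pan-neuronal list in place of TMM, the median log2 difference over all genes between con/ko and LDRG libraries was 0.27 in cKO and 0.42 in flox, against 0.02 in both with TMM. Under that scaling Kcna6, Kcnq3 and Kcnq5 no longer passed in either genotype (in flox their differences were -0.01, -0.10 and -0.20). The members called in flox were 5 others, all higher: Kcna1, Kcna2, Kcnc4, Kcnd3 and Kcns1. There 9667 of the 16928 genes tested were called in either direction, so this count of members is near its background. Kcna2 in flox turned from -0.12 to 0.29 (adjusted p = 0.00982 in edgeR) and Kcnd3 from -0.07 to 0.34 (adjusted p = 0.0443). Relative to the all-gene median both values stay below it. The CFA minus LDRG medians became 0.13 in cKO and 0.17 in flox, and Kcna2 stood at 0.39 (adjusted p = 0.0167) and 0.54 (adjusted p = 0.00143). The CFA minus con/ko medians became -0.16 in cKO and -0.26 in flox. In flox, Kcna6 stood at 0.10 (adjusted p = 0.348) and Kcna1 at 0.39 (adjusted p = 0.188), neither past the threshold, while Kcna2 at 0.25 (adjusted p = 0.0207) and Kcnq3 at 0.49 (adjusted p = 0.00567) passed.

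The second comparison asked whether deletion of Tmem45b in Mrgprd-lineage neurons goes with a change in these channels. No member was called between cKO and flox libraries in any set, by edgeR or DESeq2. Of all genes, edgeR called 0% in the CFA set, 0.414% in the con/ko set and 0.00591% in the LDRG set. DESeq2 called 15, 348 and 15 genes in these sets. At an unadjusted p under 0.05 the count was 0 of 9 in the CFA set, 1 of 9 in the con/ko set and 0 of 9 in the LDRG set, beside 788, 1885 and 419 of the 16928 genes tested, so the con/ko count is near its background. The con/ko gene was Kcnd3, at 171, 162, 187 and 207 CPM in cKO, against 185, 249 and 235 CPM in flox libraries, a log2 difference of -0.30 (SE 0.12, adjusted p = 0.325 in edgeR) with overlapping ranges. Kcnd3 also split by the letter C or L in con/ko names. Libraries with C had 171, 162 and 187 CPM in cKO and 185 CPM in flox. Those with L had 207 CPM in cKO and 249 and 235 CPM in flox. C is commoner in cKO and L in flox names, so genotype and letter go together in part here. A fit with a term for this letter called 0 of 9 members, where 49 of 16440 genes were called. In the LDRG set Kcns1 was higher in each cKO library (60.1, 57.8 and 57.2 CPM) than in each flox library (55.2, 51.4 and 49.7 CPM), and Kcna6 lower, with adjusted p = 1 for both; 5.18% of genes were higher and 5.02% lower without overlap.

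The intervals limit how large a difference between the labelled genotypes could be in whole-ganglion RNA. They set no limit on a change within the neurons with Cre alone. In the CFA set, the intervals and both interactions rest on genotype labels that Tmem45b did not separate. For Kcna2 the 95% interval ran from -0.15 to 0.14 in the CFA set, -0.11 to 0.21 in con/ko and -0.06 to 0.28 in LDRG. For Kcna1 it was wider, from -0.36 to 0.47 in the CFA set, -0.44 to 0.46 in con/ko and -0.21 to 0.75 in LDRG. The interaction of genotype with set was called for 0 of 9 members against either untreated set by edgeR or DESeq2. In edgeR, 0 of 9 had an unadjusted p under 0.05 and 0% of all genes were called. DESeq2 called 15 genes against LDRG and 42 against con/ko. For Kcna1 and Kcna2, called in flox and not in cKO libraries against LDRG, the interaction was -0.22 (95% interval -0.85 to 0.42) and -0.11 (-0.34 to 0.11).

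**Figure D4:**
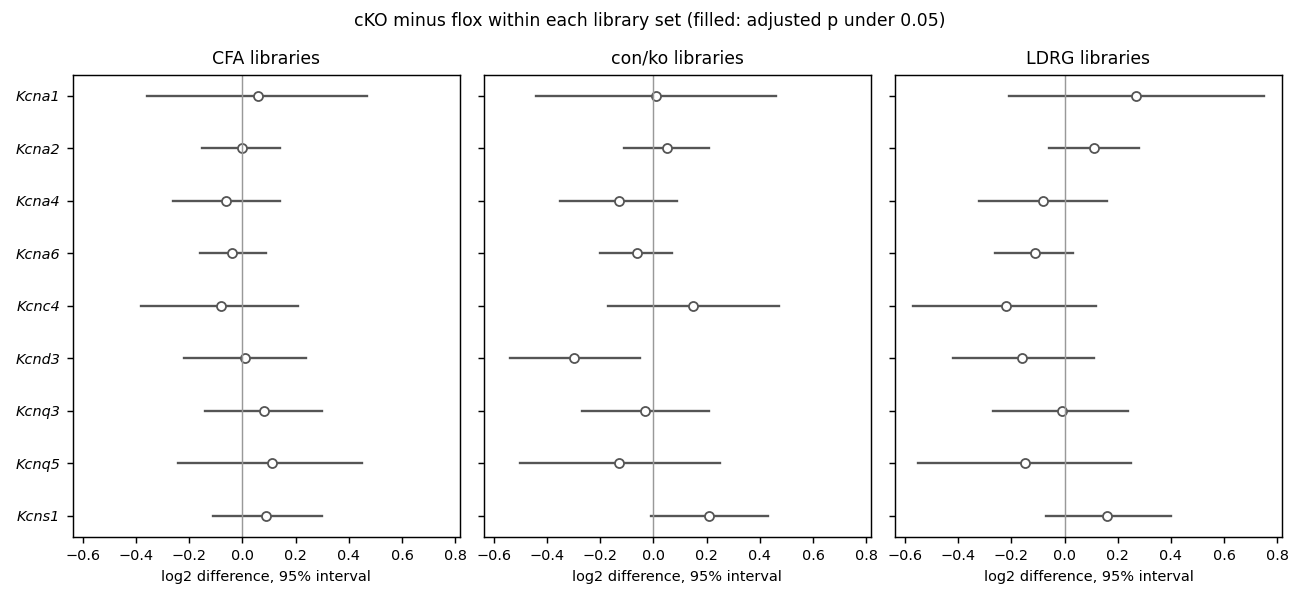
Log2 differences, cKO minus flox, with 95% intervals within the CFA, con/ko and LDRG sets; open points did not pass adjusted p under 0.05 in edgeR. All 27 points are open and 26 of the intervals span 0, the exception being Kcnd3 in the con/ko set (-0.54 to -0.05). In that set the letters C and L are shared unevenly between genotypes.

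Since Tmem45b did not separate the CFA labels, the sets were also compared with the genotype label dropped, a fit chosen after the data were seen. CFA minus LDRG then called Kcna1 (0.74, adjusted p = 0.00259), Kcna2 (0.31, adjusted p = 0.000589) and Kcnq3 (0.27, adjusted p = 0.0264) as higher, where 12.2% of all genes were called. CFA minus con/ko called the same 6 genes as the cKO comparison, where 52.6% were called. Con/ko minus LDRG called 6 of 9, where 49% were called.

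Among relatives of these channels, 45 family genes in 5 lists were set beside the members, of which 43 were tested. None was called in CFA against LDRG libraries in either genotype, where 1.25% of all genes were called in cKO and 3.74% in flox. An unadjusted p under 0.05 was seen for 6 of 43 in cKO and 7 of 43 in flox. Beside these stand 2791 and 3147 of the 16928 genes tested, so both counts are near their background. Against con/ko, 12 were called higher and 2 lower in cKO and 16 higher and 2 lower in flox libraries, which is 32.6% and 41.9% of those tested, against 39.3% and 34.4% of all genes. The list medians were 0.19 and 0.29, against -0.04 and -0.03 over all genes. Kcnv1, a silent subunit that modifies Kv2 channels, had the smallest p of the higher family genes in cKO, at 1.22 (SE 0.15) in cKO and 0.88 (SE 0.16) in flox. Kcng2, another silent subunit, was lower by 0.59 in cKO and 0.44 in flox on the log2 scale. Between con/ko and LDRG libraries 3 family genes were called higher and 15 lower in cKO, and 2 higher and 10 lower in flox, which is 41.9% and 27.9% of those tested, against 33.7% and 33.5% of all genes; Kcnv1 was among the lower ones, at -1.14 and -1.23.

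Of 12 Kv1 complex partners at the juxtaparanode and synapse, 6 were called higher and 1 lower in cKO, and 8 higher and 1 lower in flox, in CFA against con/ko libraries, where 39.3% and 34.4% of all genes were called (18.4% and 16.7% higher). Adam22, a transmembrane partner of secreted Lgi proteins, differed by 0.58 in cKO and 0.56 in flox (SE 0.09 each), and its relative Adam23 by 0.66 and 0.87. Cntnap2, which holds Kv1 channels beside the node, differed by 0.54 in flox. The lower gene was the scaffold Dlg1, by -0.29 and -0.53. Of 12 M-current regulators and anchors, 6 were called higher in cKO and 4 in flox and none lower in the same comparisons; Calm2, a calmodulin gene, differed by 0.61 in cKO. Neither list had a called gene in CFA against LDRG libraries, where 1.25% of all genes were called in cKO and 3.74% in flox. In each list 1 of 12 had an unadjusted p under 0.05 in cKO and 2 of 12 in flox, beside 2791 and 3147 of the 16928 genes tested.

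Members varied together in part within groups. Over the 21 libraries, after subtraction of the 6 group means, Pearson's r of log2 CPM was 0.83 for Kcna1 with Kcnq3 and 0.76 for Kcna1 with Kcna2, but 0.33 for Kcna1 with its neighbour Kcna6. Kcnd3 and Kcns1 ran opposite, at -0.45. With summed marker lists, Kcnd3 followed nonpeptidergic neuron markers (0.89) and Kcnq5 ran against myelinating Schwann cell markers (-0.83); Kcns1 ran against macrophage markers (-0.75). These values share library depth and tissue composition and are descriptions only.

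**Figure D5:**
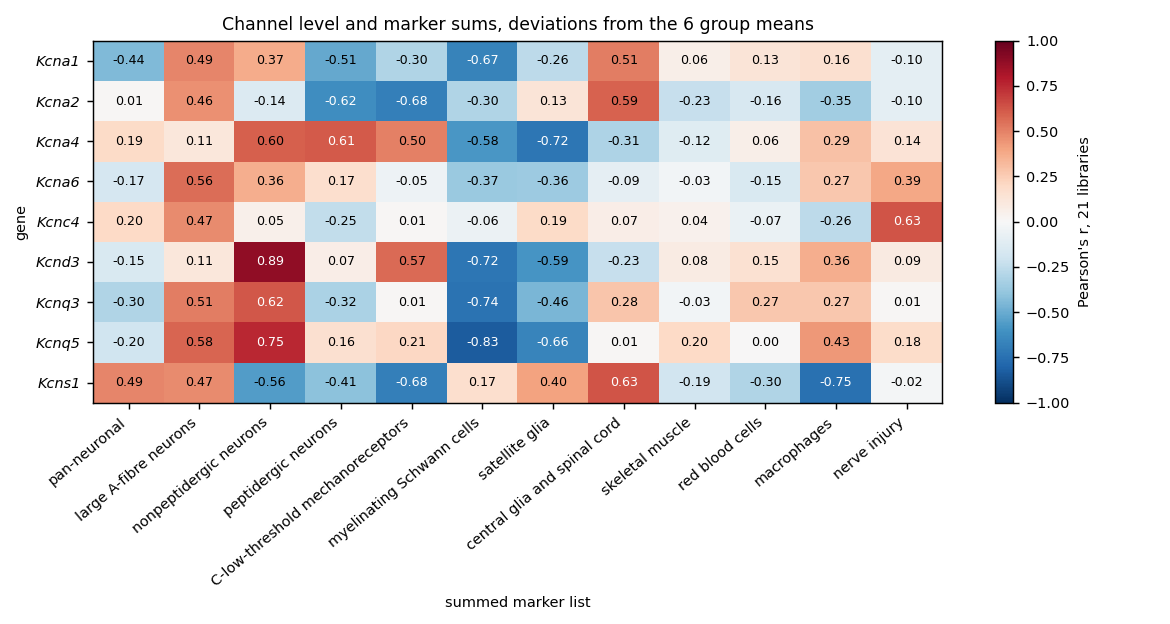
Pearson's r between each channel gene (rows) and the summed level of each marker list (columns) over 21 libraries, as deviations from the 6 group means; red is positive and blue negative. The deepest cells are Kcnd3 with nonpeptidergic neurons (0.89) and Kcnq5 with myelinating Schwann cells (-0.83).

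The genes most like each member over the 21 libraries, by Pearson's r of log2 CPM, were Ube4a and Adam22 for Kcnq3 (0.98 each), Jakmip2 and Cdk14 for Kcnq5 (0.95 and 0.94), and Pcdh9 and Pik3ca for Kcna2 (0.94 each). For Kcna1 they were Lingo4 and Lancl3 (0.94 each), and for Kcna6 Extl3 and St8sia3 (0.94 and 0.93). Samd12 and Ptgdr followed Kcnd3 (0.93 each), and Faim2 and Hebp2 Kcns1 (0.92 and 0.86). The closest genes to Kcna4, Galnt3 and Far2, reached 0.86 and 0.85, and those to Kcnc4, Vps18 and Dsp, 0.84 and 0.83. After subtraction of the group means the closest genes were others in every case, such as Scn2a for Kcnq3 (0.94) and Ttc3 for Kcna1 (0.95).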

How the data were processed

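Poly-A RNA of mouse dorsal root ganglia was sequenced as paired reads, per the labels' protocols. The authors deposited raw counts of reads for each gene, as a table of 14 libraries (CFA and LDRG, 24524 genes) and one of 7 (con/ko, 24512 genes). Per the submitters' processing notes, fastp 0.23.2, BWA 2.2.1, SAMtools 1.14, DESeq2 1.40.2 and mm10 were used; the counting tool, annotation and strand setting are not given in the sources used here. In the table of 14, counts of 4 (4068 values) were commoner than counts of 3 (2096), so a count may not be 1 fragment. Titles and library names gave the genotype, since that characteristic names the Cre line throughout.

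The 24381 shared genes were filtered (filterByExpr, at least 10 counts and a total of 15), scaled by TMM and tested in edgeR 4.0.16 (R 4.3.3), with 1 quasi-likelihood fit of 6 group means over 21 libraries, 11 contrasts, and Benjamini-Hochberg adjustment over 16928 genes, called under 0.05. The steps were tested on simulated data. The smallest library held 53.4 M counts. Over 27 pairs of replicates the chi-square per degree of freedom was 26.1 to 145, so none was counted as 1 sample. Named genes are the 9 members, up to 4 called genes with the smallest p per direction and contrast from the family, partner and regulator lists, and the 2 genes most correlated with each member. Members and lists were chosen with earlier results of these data known. Alternatives were RLE size factors, DESeq2 1.42.0, other filters, pan-neuronal scaling, only the compared libraries, the table of 14 alone, a replicate block, code letter terms, con/ko libraries coded F, and each library left out.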

Additional observations from a re-analysis of the deposited data

Results flagged for a closer look

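Kcna4 was lowest, at 29.1 CPM, in CFA library 1 labelled flox, while the other 3 libraries of that group lay between 33.1 and 33.9 CPM; the gap was 0.833 of the group's range. It was the only one of 27 groups of a member's values with a sample that far from the others, and chance flags about 1 in 20.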

How the results depend on the processing

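No difference that passed under TMM changed direction under an alternative run, but Kcna2 and Kcnd3 in con/ko against LDRG flox, which had not passed (-0.12 and -0.07), passed as higher with pan-neuronal scaling (0.29 and 0.34), and Kcna2 passed as lower with the genotype label dropped (-0.14). RLE size factors and both other filters changed no call of a member. In CFA against LDRG, cKO, the count of members called was 0, where 211 of all genes were called. It was 2 with DESeq2 (834 genes), 1 with pan-neuronal scaling (849 genes) and 3 with the genotype label dropped (2064 genes). In flox the count of members was 2, where 633 of all genes were called. It was 1 with only the compared libraries (438 genes) and 1 without the CFA libraries with high Kcnb2 (268 genes). With each library left out it was 0 to 2, and 0 without LDRG library 2 (182 genes). With the replicate block it was 0 (263 genes). The count over all genes thus fell in the same settings. Deviations of libraries with the same replicate number correlated between -0.15 and 0.24. Con/ko pairs with different numbers reached -0.48 and 0.47. Deviations from means of 3 or 4 libraries cannot decide whether the numbers pair the samples. Why calls were lost under the block was not tested. Pan-neuronal scaling gave 2 in CFA against con/ko flox (4 with TMM) and 2 in con/ko against LDRG cKO (4). It gave 5 in flox (3, all lower, where the 5 are other genes, all higher), and 1 between con/ko genotypes (0, now Kcnd3 at -0.47). In that order, all genes called were 7135, 7129, 9667 and 922, against 5826, 5697, 5668 and 70 with TMM. With the label dropped, con/ko against LDRG gave 6 (8292 of all genes called), set beside 3 in flox (5668). With each library left out, CFA against con/ko gave 5 to 6 in cKO and 3 to 5 in flox, where 5394 to 6436 and 4367 to 5571 genes were called. Con/ko against LDRG gave 3 to 5 and 2 to 3, where 4148 to 5539 and 4115 to 5195 genes were called. The Kcnq5 call between con/ko and LDRG libraries was lost without cKO LDRG library 1, flox LDRG library 1 or 3, or flox con/ko library 4. The cause of these changes was not tested. Groups held only 3 or 4 libraries, and each member had enough counts to pass the filter.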
